A study of Ovis aries with 2 samples.

Results

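MTNR1A (ENSOARG00000008287) encodes the melatonin receptor MT1, and it was followed through the germ cells of 2 single-cell libraries of sheep testis. It is 1 of the 27054 genes listed in both libraries and was picked by its symbol. It was chosen because, in an earlier pass over these same libraries, its level in spermatids of the ZEA0.75 library relative to the Control library was among the lowest of all genes. Its levels and ratios between the libraries are therefore given as a description, with no test. The RefSeq annotation of the sheep assembly ARS-UI_Ramb_v3.0 places the gene on chromosome 26.

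The first library comes from testis treated as ZEA0.75 and the second from Control testis, both at 8 months of age. ZEA commonly stands for zearalenone, a mycotoxin of Fusarium moulds that acts on oestrogen receptors. No label states the unit of 0.75, the route of exposure or how many animals were used. In this 10x droplet assay reads with the same molecular tag (a unique molecular identifier, UMI) count once, so the values are molecules per gene and cell. The design text frames the study as one of testis damage by ZEA. With 1 library per group, treatment cannot be told apart from the animal, the tissue preparation or the software version, and every interval below is a 95% interval that covers counting error only.

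MT1 is a receptor of the cell surface that couples mainly to inhibitory G proteins, so that melatonin lowers cyclic AMP in cells that carry it. In sheep it is best known from the pars tuberalis of the pituitary, where the nightly melatonin signal times seasonal breeding, and melatonin receptors have also been described on ram spermatozoa. Cyclic AMP has its own place in male germ cells, where the transcription factor CREM switches on many spermatid genes and protein kinase A acts in sperm motility.

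After filtering, 8804 ZEA0.75 cells and 6811 Control cells were kept. Germ cells made up 3842 of them (43.6%) in the ZEA0.75 library and 6613 (97.1%) in the Control library. Germ cells were also shallower in the ZEA0.75 library, with a median of 971 UMIs, against 4768 UMIs in the Control library. The libraries share 15 barcode sequences, which held 0 ZEA0.75 and 5 Control MTNR1A UMIs among kept cells. Levels are given as CPM, counts scaled to a common total: the summed MTNR1A UMIs of a group of cells divided by all UMIs of those cells.

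Stages were graded by 4 genes. AURKA, a kinase of the division spindle, marks late spermatocytes; SPACA1, a membrane protein of the acrosome, marks round spermatids; HMGB4, a chromatin protein, marks later spermatids; and SPEM1, needed to shed cytoplasm, marks the last stage. Cells were clustered without MTNR1A, and each germ cluster was placed with the stage gene that stood highest in it relative to that gene's highest germ cluster. AURKA reached 638 CPM in AURKA-led Control cells. SPACA1 reached 747 CPM in SPACA1-led ZEA0.75 cells and 650 CPM in SPACA1-led Control cells. HMGB4 reached 9009.9 CPM in HMGB4-led ZEA0.75 cells and 12661 CPM in HMGB4-led Control cells. The same stage lay in largely separate clusters in the libraries. SPACA1-led ZEA0.75 cells were mostly in clusters 0, 1, 2 and 8 (1184, 826, 366 and 368 cells), and SPACA1-led Control cells mostly in clusters 10, 17 and 24 (1494, 683 and 617 cells). HMGB4-led ZEA0.75 cells were mostly in cluster 3 (934 cells), and HMGB4-led Control cells mostly in clusters 18 and 20 (938 and 663 cells). SPACA1-led cells had less HMGB4 in the ZEA0.75 library (4207 CPM) than in the Control library (6929 CPM).

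In the ZEA0.75 library MTNR1A RNA was nearly missing at both stages that could be compared by cluster. SPACA1-led cells held 29 MTNR1A UMIs in 2828 ZEA0.75 cells, or 4.27 CPM (2.86 to 6.13), against 76.6 CPM in Control cells of that stage. The log2 ratio was -4.17 (-4.75 to -3.64), an 18.0-fold lower level. HMGB4-led cells held 2 UMIs in 983 ZEA0.75 cells, or 0.907 CPM (0.110 to 3.28), against 36.4 CPM in Control cells, a log2 ratio of -5.33 (-8.38 to -3.47). Within clusters that both libraries filled, cluster 0 (SPACA1-led) held 3.85 CPM (0.795 to 11.3) in 1184 ZEA0.75 cells and 129 CPM (80.9 to 196) in 252 Control cells. Cluster 3 (HMGB4-led) held 0.962 CPM (0.117 to 3.48) in 934 ZEA0.75 cells and 76.1 CPM (47.1 to 116) in 210 Control cells. The Control cells of clusters 0 and 3 were shallow, with medians of 603.5 and 1119 UMIs. Their intervals overlap that of Control cells that are not germ cells, 65.7 CPM (39.5 to 103), so their levels are not read as expression. The Control stage levels of 76.6 and 36.4 CPM include these clusters. Beyond a subtraction given below, the part of RNA released from broken cells in those levels was not tested. At the Control levels of each stage the ZEA0.75 cells would have given 521 and 80.3 MTNR1A UMIs, against the 29 and 2 that were counted.

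**Figure D1:**
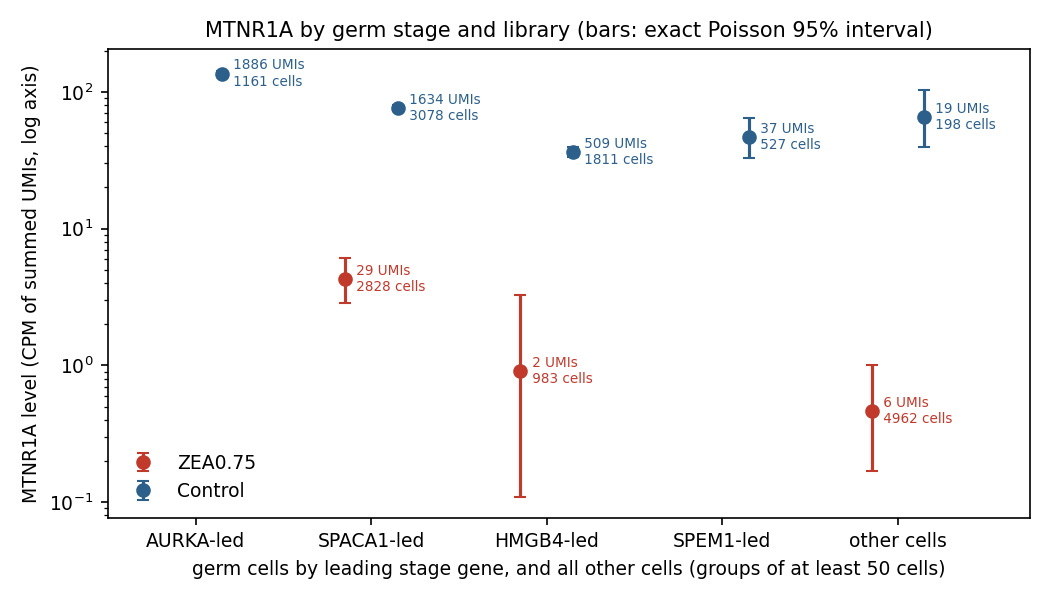
MTNR1A level (CPM of summed UMIs, log axis) by germ cell stage and in all other cells of the ZEA0.75 and Control libraries, for groups of at least 50 cells, with exact 95% Poisson intervals. ZEA0.75 cells lie at 4.27 CPM in SPACA1-led and 0.907 CPM in HMGB4-led cells, below Control cells at 76.6 and 36.4 CPM in those stages.

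With stages set by cluster, the remaining stages were too thinly filled in the ZEA0.75 library to compare. It held 6 AURKA-led cells with 1 MTNR1A UMI, 8 SPEM1-led cells with 0 UMIs and 17 spermatogonia-led cells with 0 UMIs. By cluster, the stage where Control cells had the most MTNR1A was thus almost absent from the ZEA0.75 library. The ratios by cluster stage rest on SPACA1-led and HMGB4-led cells. Ratios over germ cells of all stages, or over all kept cells, also take in AURKA-led cells. Staged by the genes of each single cell, on as few as 2 UMIs of the stage genes, more ZEA0.75 cells entered. AURKA-led cells then held 1 MTNR1A UMI in 148 ZEA0.75 cells, or 2.39 CPM, against 136 CPM in 1400 Control cells. SPEM1-led cells held 0 UMIs in 186 ZEA0.75 cells, against 38.1 CPM in 963 Control cells.

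In the Control library MTNR1A was highest in AURKA-led cells and lower in each of the next 2 stages. AURKA-led cells held 1886 MTNR1A UMIs in 1161 cells, which is 136 CPM (130.3 to 143). SPACA1-led cells held 1634 UMIs in 3078 cells, or 76.6 CPM (73.0 to 80.4). HMGB4-led cells held 509 UMIs in 1811 cells, or 36.4 CPM (33.3 to 39.7). Each of these steps exceeded counting error, with a log2 difference of -0.83 (-0.93 to -0.74) for SPACA1-led over AURKA-led cells and -1.07 (-1.22 to -0.93) for HMGB4-led over SPACA1-led cells. After thinning every cell to 500 UMIs the step from AURKA-led to SPACA1-led cells lay within counting error, with a UMI in 4.91% of AURKA-led cells (3.74 to 6.31) and 4.42% of SPACA1-led cells (3.72 to 5.21), a log2 difference of -0.15. SPEM1-led cells held 37 UMIs in 527 cells, or 46.9 CPM (33.0 to 64.7), and did not differ from HMGB4-led cells beyond counting error (0.36, -0.16 to 0.85). Cells of at least 5000 UMIs kept the order of the first 3 stages, with 138 CPM in AURKA-led, 74.4 CPM in SPACA1-led and 36.0 CPM in HMGB4-led cells. The few spermatogonia-led cells, 36 in number, held 6 UMIs, or 21.8 CPM (7.99 to 47.4).

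Over all germ cells the level was 3.50 CPM (2.39 to 4.94) from 32 UMIs in the ZEA0.75 library and 81.1 CPM (78.7 to 83.7) from 4072 UMIs in the Control library. The log2 ratio was -4.54 (-5.09 to -4.04), 23.2-fold lower. AURKA-led cells gave 1886 of these Control UMIs and 1 of the ZEA0.75 UMIs, so this ratio mixes stages that the libraries hold in unlike numbers. Over all kept cells, without any cell class, the level was 1.72 CPM from 38 UMIs in the ZEA0.75 library and 81.1 CPM from 4091 UMIs in the Control library, 47.2-fold lower. The median log2 ratio of all genes was 0.13 in germ cells, 0.29 in SPACA1-led and 0.15 in HMGB4-led cells, so the general shift between the libraries was small and ran the other way.

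Placed among all genes, MTNR1A ranked 4 from the lowest of 9572 genes in SPACA1-led cells and 1 of 7396 in HMGB4-led cells. Genes at least 2-fold lower in the ZEA0.75 library made up 5.77% of all genes in SPACA1-led cells, 6.03% in HMGB4-led cells, 9.59% in all germ cells and 16.1% in all kept cells. Genes at least 2-fold higher made up 34.1% of all genes over all kept cells. Since the gene was chosen for this ratio, nothing is read from its rank. In SPACA1-led cells U6 ranked below MTNR1A, with 1 ZEA0.75 and 142 Control UMIs (log2 ratio -5.50). Other low genes with a symbol included PLB1, a phospholipase, at 3.83 CPM in SPACA1-led ZEA0.75 cells and 53.1 CPM in Control cells (log2 ratio -3.80). VAT1L stood at 19.4 CPM in ZEA0.75 and 142 CPM in Control cells of that stage (-2.87).

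Depth differed with the library, and the comparison was therefore repeated in germ cells of at least 5000 UMIs. These deep cells held 17 MTNR1A UMIs in 473 ZEA0.75 cells and 3724 UMIs in 3274 Control cells, which is 3.38 CPM in the ZEA0.75 library and 82.8 CPM in the Control library. The log2 ratio was -4.61 (-5.40 to -3.93), as large as without the depth limit. Here too AURKA-led cells entered, with 1859 of the Control UMIs and 1 of the ZEA0.75 UMIs. Deep SPACA1-led cells held 16 UMIs in 417 ZEA0.75 cells and 1420 UMIs in 1273 Control cells (-4.38). Deep HMGB4-led cells held 0 UMIs in 43 ZEA0.75 cells and 436 UMIs in 955 Control cells. The ZEA0.75 level was 5.21-fold lower when 3 counts over the group stand in for 0. The interval for 0 UMIs starts at 4.22-fold lower. Among all genes of these deep cells, 14.6% were at least 2-fold lower and 14.8% higher over germ cells, 12.1% lower and 18.6% higher in SPACA1-led cells, and 12.3% lower and 6.94% higher in HMGB4-led cells.

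Each ZEA0.75 germ cluster was also set beside the Control cluster closest to it in the 4 stage genes. Of the 6 pairs, 1 was deep in both libraries. The ZEA0.75 cells of cluster 8, with a median of 9773.5 UMIs, were paired with the Control cells of cluster 24, with a median of 12750 UMIs. They held 14 MTNR1A UMIs, or 3.73 CPM, in the ZEA0.75 library and 725 UMIs, or 85.9 CPM, in the Control library, a log2 ratio of -4.53 (-5.41 to -3.77). HMGB4 was 3104 CPM in those ZEA0.75 cells and 5673 CPM in those Control cells, and SPEM1 was 73.2 CPM in those ZEA0.75 cells and 319.7 CPM in those Control cells, so this pair was not closely matched in stage. In the 5 other pairs the ZEA0.75 clusters were shallow. The log2 ratios of 4 of them lay between -5.39 and -3.66, and the last had 0 UMIs in 65 ZEA0.75 cells and 181 UMIs in 1494 Control cells of cluster 10.

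Deep germ cells were also sorted by their own HMGB4 level, which did not match the lower ranges in stage. AURKA stood at 168 CPM in ZEA0.75 cells and 631 CPM in Control cells under 1000 CPM of HMGB4, and at 141 CPM in ZEA0.75 cells and 631 CPM in Control cells from 1000 to 2500 CPM, so Control cells there were AURKA-high and ZEA0.75 cells were not. From 2500 to 5000 CPM, AURKA stood at 48.7 CPM in ZEA0.75 cells and 81.0 CPM in Control cells. Under 1000 CPM of HMGB4 there was 1 MTNR1A UMI in 13 ZEA0.75 cells, or 9.90 CPM (0.251 to 55.1), against 132 CPM in 702 Control cells. From 1000 to 2500 CPM of HMGB4, MTNR1A stood at 1.77 CPM in 101 ZEA0.75 cells and 147 CPM in 343 Control cells. From 2500 to 5000 CPM, it stood at 3.71 CPM in 221 ZEA0.75 cells and 91.5 CPM in 205 Control cells. From 5000 to 7500 CPM, it stood at 3.87 CPM in 78 ZEA0.75 cells and 81.3 CPM in 515 Control cells. MTNR1A was lower at each higher HMGB4 range of Control cells past 2500 CPM, and the ZEA0.75 level lay under the Control level in each of these ranges. At 7500 to 10000 CPM the values were 6.62 CPM from 2 UMIs in 31 ZEA0.75 cells and 62.3 CPM in 544 Control cells. Above 10000 CPM there were 0 UMIs in 29 ZEA0.75 cells and 457 UMIs, or 37.2 CPM, in 965 Control cells. These ranges were chosen after seeing the data.

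**Figure D2:**
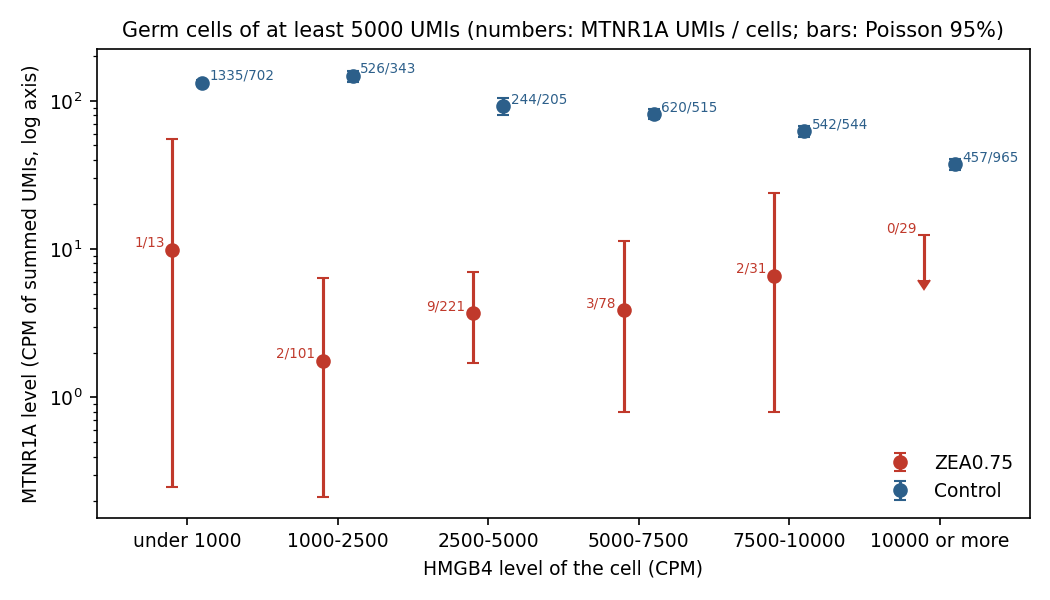
MTNR1A level (CPM of summed UMIs, log axis) in germ cells of at least 5000 UMIs, sorted by the HMGB4 level of the cell in CPM, for the ZEA0.75 and Control libraries with exact 95% Poisson intervals. ZEA0.75 cells stay between 1.77 and 6.62 CPM in the ranges from 1000 to 10000 CPM of HMGB4, where Control cells lie between 62.3 and 147 CPM; below 2500 CPM the Control cells are also AURKA-high. The arrow marks the upper limit for 0 UMIs, and the numbers give MTNR1A UMIs and cells.

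AURKA-led cells of the Control library were not uniform in MTNR1A. Cluster 21, the larger AURKA-led cluster with 1012 cells, held 156 CPM (148 to 163). Cluster 23, with 149 cells, held 49.4 CPM (41.1 to 59.0) at a higher median depth of 17290 UMIs. Cluster 23 was also the cluster with high PIWIL1, a piRNA-binding protein of pachytene spermatocytes, at 431 CPM, against 72.2 CPM in cluster 21.

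The same order appeared when deep AURKA-led Control cells were sorted by AURKA itself. The 84 cells under 250 CPM of AURKA held 45.5 CPM (34.2 to 59.3) of MTNR1A and 456 CPM of PIWIL1. The 221 cells from 250 to 500 CPM held 137 CPM (124 to 151) of MTNR1A, and the 595 cells from 500 to 1000 CPM held 151 CPM. Cells above 1000 CPM of AURKA held 143 CPM (124 to 164). MTNR1A was thus low where PIWIL1 was high and did not differ beyond counting error between the range from 250 to 500 CPM and that above 1000 CPM. These ranges too were chosen after seeing the data.

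Across all 10 Control germ clusters of at least 50 cells, levels ran from 156 CPM in cluster 21 to 25.4 CPM (20.9 to 30.6) in the HMGB4-led cluster 18. Of neighbours in this order, only cluster 17 over cluster 23 (0.41, 0.13 to 0.70) and cluster 20 over cluster 18 (0.67, 0.36 to 0.99) differed beyond counting error. The other 7 neighbouring pairs did not. Clusters 0, 3, 10, 18 and 19 were shallower, with medians of at most 3274.5 UMIs, and their number of UMIs per cell was like that of cells that are not germ cells, cluster 18 included. Among the 5 deep clusters the levels ran from 156 CPM in cluster 21 to 40.3 CPM (36.4 to 44.6) in cluster 20.

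Repeated detection within a cell was seen in the Control library alone. Each of the 38 ZEA0.75 cells with MTNR1A held exactly 1 UMI. In the Control library the highest count in a cell was 13 UMIs, and 13.7% of AURKA-led cells held 4 or more. Among AURKA-led Control cells 33.0% held 0 UMIs, 24.3% held 1, 16.9% held 2 and 12.1% held 3. Counts drawn evenly in proportion to each cell's depth would leave 28.1% at 0, so more of these cells stood at 0 than depth alone gives; that difference was not tested. In SPACA1-led Control cells 68.4% held 0 UMIs, against 67.8% from depth alone, and in HMGB4-led Control cells 78.9%, against 77.6%. In the ZEA0.75 library depth alone left 99.0% of SPACA1-led and 99.8% of HMGB4-led cells at 0, the same shares as were counted. At so low a level hardly any cell would hold 2 UMIs. The lack of such ZEA0.75 cells is therefore not a further difference between the libraries.

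**Figure D3:**
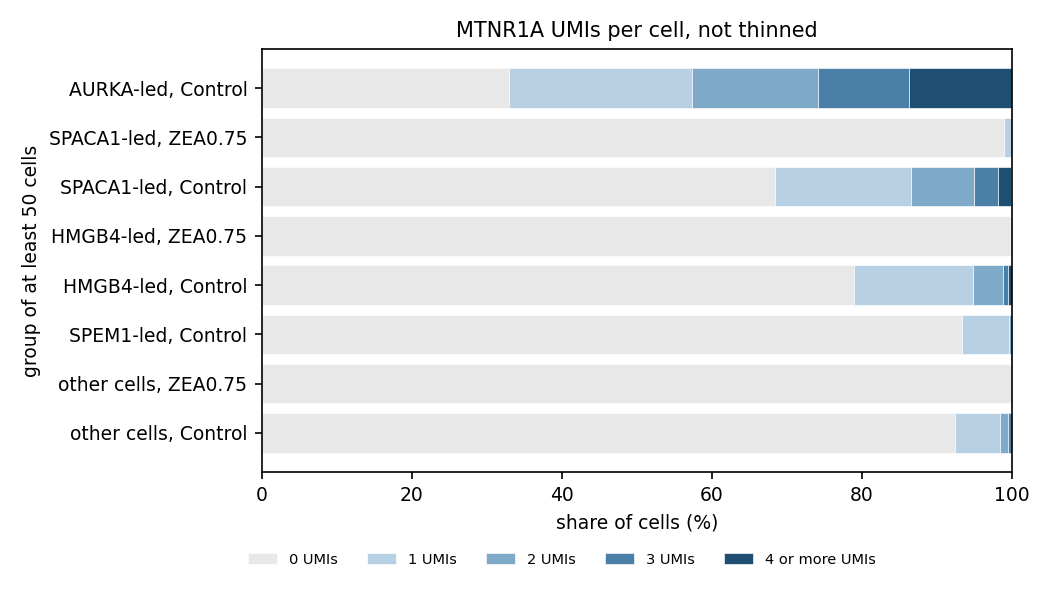
Share of cells (percent) by MTNR1A UMIs per cell, for groups of at least 50 cells of the ZEA0.75 and Control libraries, without thinning. No ZEA0.75 cell holds more than 1 UMI, while 42.7% of AURKA-led and 13.4% of SPACA1-led Control cells hold 2 or more.

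RNA released from broken cells gives UMIs in droplets whose cell does not express a gene, and cells that are not germ cells were read as its measure. In the ZEA0.75 library these cells held 6 MTNR1A UMIs in 4962 cells, or 0.462 CPM (0.169 to 1.01), with a UMI in 0.121% of them at a median depth of 1700.5 UMIs. ZEA0.75 germ cells had a UMI in 0.833% at a median depth of 971 UMIs. Among deep ZEA0.75 cells 17 UMIs lay in 473 germ cells and 0 in 664 other cells, where the interval reaches up to 0.677 CPM. The small ZEA0.75 signal was thus higher in germ cells than in the other cells of that library.

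In the Control library the other cells were few and not free of MTNR1A. They held 19 UMIs in 198 cells, or 65.7 CPM (39.5 to 103), with a UMI in 7.58% of them at a median depth of 1100 UMIs. Of these, the 44 cells of cluster 16 held 4 UMIs, and the 114 cells of cluster 22, which had Sertoli markers, held 14. Leukocyte markers of cluster 16 were read in its ZEA0.75 cells and were not checked in its Control cells. Control germ clusters with a median depth of at most 3274.5 UMIs lay at a like number per cell, from 0.0702 UMIs in cluster 19 to 0.121 in cluster 10, against 0.0960 in the other cells. Deep Control germ clusters held from 0.570 UMIs per cell in cluster 20 to 1.74 in cluster 21, but depth alone raises this number. By CPM, cluster 21 at 156 CPM (148 to 163) was the only one of the 10 Control germ clusters whose interval lay above that of the other cells. Clusters 24, 17, 23 and 20, at 85.9, 65.6, 49.4 and 40.3 CPM, did not. Germ cells made up 97.1% of the kept Control cells, so released RNA there would come mostly from germ cells. A like CPM in the other cells therefore cannot show that a germ cluster lacks expression.

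Thinned to 500 UMIs per cell, 3.70% of Control germ cells (3.26 to 4.19) and 4.04% of other Control cells (1.76 to 7.81) had an MTNR1A UMI. At that depth the share did not differ beyond counting error between germ and other cells of the Control library. Like the CPM, this share cannot tell expression from released RNA in a library made up mostly of germ cells. The levels of its shallow clusters, cluster 18 and SPEM1-led cells included, are not read as expression. Of the deep clusters, 21 and 24 had a UMI in 5.43% and 5.51% of thinned cells, and 17, 20 and 23 in 2.93%, 2.11% and 1.34%. Subtracting the MTNR1A UMIs per cell of each library's other cells gave log2 ratios of -4.06 in SPACA1-led cells and -4.52 over germ cells. The same step gave -5.78 over all kept cells and -6.03 in HMGB4-led cells, the last from 2 ZEA0.75 UMIs. Beyond this subtraction, the part of released RNA in the Control levels was not tested.

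**Figure D4:**
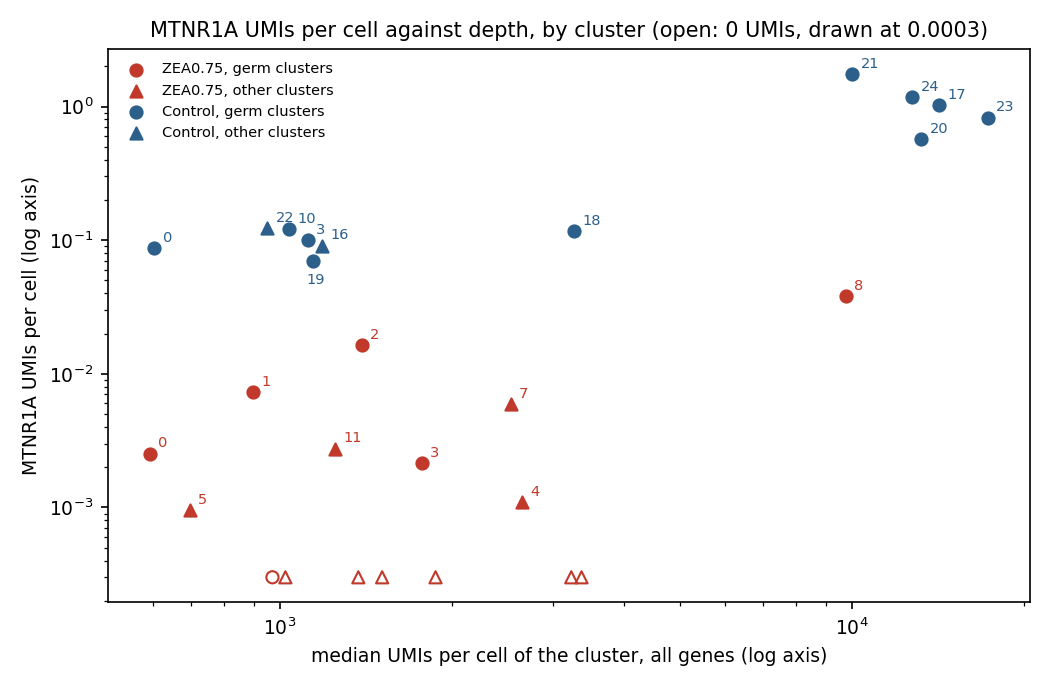
MTNR1A UMIs per cell against median depth (UMIs per cell, both axes log) in the ZEA0.75 and Control libraries, for clusters of at least 50 cells and the 44 Control cells of cluster 16; numbers name the clusters, and open symbols at the lower edge stand for 0 UMIs. The deep ZEA0.75 cluster 8 lies at 0.0380 UMIs per cell, and the deep Control germ clusters lie between 0.570 and 1.74.

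The receptor was then set beside the other genes of the melatonin pathway. The list had 69 genes apart from MTNR1A, of which 61 matched a symbol; the synthesis enzymes AANAT and ASMT, NQO2, SULT1A1, CALM2, GNAO1, GNAZ and PRKAR1A did not match and are not analysed here. The other melatonin receptor, MTNR1B, had 4 germ cell UMIs over both libraries, and the related orphan receptor GPR50 had 0. MTNR1A was thus the melatonin receptor with a measurable amount of RNA in these germ cells.

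In SPACA1-led cells 31 of the 61 genes had enough UMIs to compare. At least 2-fold lower in the ZEA0.75 library were 3 of them (9.68%), beside 5.77% of all genes, and 4 (12.9%) were at least 2-fold higher, beside 18.0% of all genes. The median log2 ratio of the list was 0.10, against 0.29 for all genes. In HMGB4-led cells 25 genes entered, of which 3 were lower and 1 was higher, beside 6.03% and 12.5% of all genes. Their median was -0.19, against 0.15 for all genes. Over all germ cells 35 entered, with 3 lower and 7 higher, beside 9.59% and 16.2% of all genes. The lowest ratio of any other entering gene was -1.28 in SPACA1-led cells and -1.84 in HMGB4-led cells.

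Of the synthesis enzymes, TPH2, which makes the serotonin precursor in nerve cells, was the one present in number. It stood at 34.7 CPM in SPACA1-led ZEA0.75 cells and 84.1 CPM in Control cells (log2 ratio -1.28, -1.48 to -1.08), and in HMGB4-led cells at 38.1 CPM in the ZEA0.75 library and 90.9 CPM in the Control library (-1.25). TPH1 had 0 UMIs in SPACA1-led ZEA0.75 cells and 2 in Control cells. DDC, the decarboxylase of the same route, had 5 UMIs in ZEA0.75 and 19 in Control cells of that stage.

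Among G proteins, GNAI3, an inhibitory subunit of the kind MT1 couples to, stood at 99.5 CPM in SPACA1-led ZEA0.75 cells and 169.9 CPM in Control cells (-0.77, -0.89 to -0.65). GNAI2, another inhibitory subunit, was low at 9.12 CPM in ZEA0.75 and 10.8 CPM in Control cells. The beta subunit gene GNB1 was lower, at 31.2 CPM in ZEA0.75 and 71.5 CPM in Control cells (-1.20), and again in HMGB4-led cells (-1.82). The stimulatory subunit gene GNAS was higher, at 106 CPM in SPACA1-led ZEA0.75 cells and 48.8 CPM in Control cells (1.12, 0.98 to 1.26). GNAS was far more abundant in cells that are not germ cells, at 2283 CPM in the ZEA0.75 library and 698 CPM in the Control library, and those cells were the more numerous in the ZEA0.75 library; their part in the GNAS ratio was not tested.

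Within the cyclic AMP pathway PRKAR2A, a regulatory subunit of protein kinase A, was lower in SPACA1-led cells, with 313 CPM in the ZEA0.75 library and 730.0 CPM in the Control library (-1.22). CREM stood at 417 CPM in ZEA0.75 and 359 CPM in Control cells (0.21), and CREB1 at 97.6 CPM in ZEA0.75 and 81.7 CPM in Control cells (0.26). The phosphodiesterase PDE4A stood at 81.2 CPM in ZEA0.75 and 67.9 CPM in Control cells (0.26). The transcription factors and PDE4A thus lay close to the median ratio of all genes. Also past 2-fold in SPACA1-led cells, and named after their values were seen, were PRKACB (1.88), PRKAR2B (2.49) and PDE4D (1.19), all higher in the ZEA0.75 library at 13.7 CPM or less. Cells that are not germ cells held 33.6 CPM of PRKAR2B in the ZEA0.75 library and 138 CPM in the Control library. In HMGB4-led cells PDE4D was lower (-1.84, from 3 ZEA0.75 and 68 Control UMIs) and PRKAR1B higher (1.11), also named after their values were seen.

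Genes listed under melatonin binding and breakdown, and those listed under receptor regulation, stayed within 2-fold in SPACA1-led cells, for all 10 that entered. Whether each of them binds melatonin was not examined. The calmodulin gene CALM3 stood at 5398 CPM in SPACA1-led ZEA0.75 cells and 7160.1 CPM in Control cells (-0.41). RORA, a nuclear receptor, stood at 41.5 CPM in ZEA0.75 and 70.1 CPM in Control cells (-0.76), and CYP1B1 at 11.5 CPM in ZEA0.75 and 13.8 CPM in Control cells (-0.27). The receptor kinase GRK4 stood at 523 CPM in ZEA0.75 and 487 CPM in Control cells (0.10). RGS22 stood at 373 CPM in ZEA0.75 and 359 CPM in Control cells (0.05), GRK3 at 0.70 and GRK2 at -0.88 on the log2 scale.

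**Figure D5:**
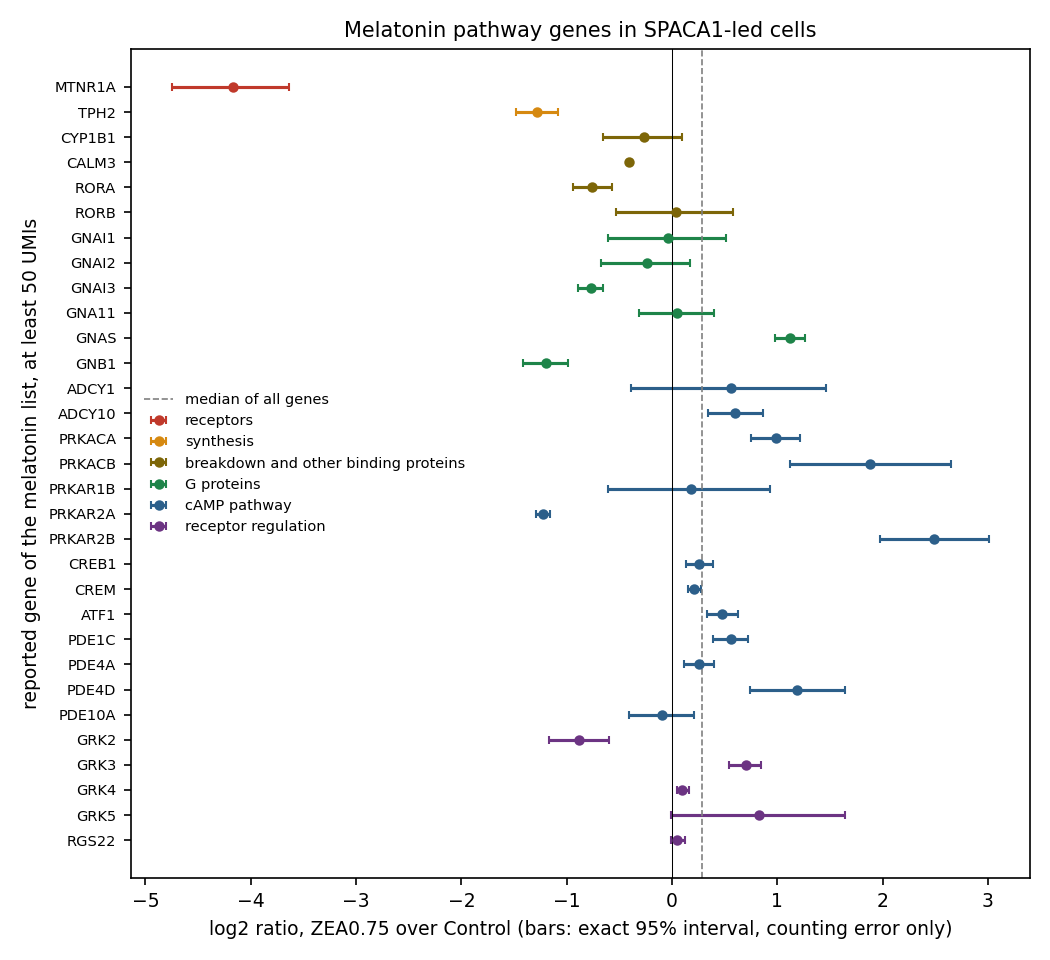
Log2 ratio of ZEA0.75 over Control in SPACA1-led cells for MTNR1A and the other genes of the melatonin list reported here that had at least 50 UMIs, coloured by role, with 95% intervals for counting error and the median of all genes as a dashed line. MTNR1A lies at -4.17, and the others lie between -1.28 for TPH2 and 2.49 for PRKAR2B.

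Genes with the pattern most like MTNR1A were sought by the Pearson correlation of log2(CPM + 1) over groups of germ cells, among 6644 genes. Groups share library and depth, so the correlation describes these groups only. The groups include the shallow Control clusters, whose MTNR1A levels are not read as expression. Over the 10 Control groups the closest were MTERF2 (r = 0.961), DYRK3 (0.959), NOA1 (0.951), MOK (0.951), GRAMD1B (0.948), GTF2E1 (0.942), JADE1 (0.939) and ZMYND15 (0.936). Most of these were highest in cluster 21, as MTNR1A was; GTF2E1 was highest in cluster 0. In SPACA1-led cells their own log2 ratios between the libraries ran from -0.23 for JADE1 to 0.86 for GTF2E1, so none of the 8 was lower in the way MTNR1A was.

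Over the 16 groups of both libraries the closest were 5_8S_rRNA (r = 0.912), ECI1 (0.874), TRIM63 (0.871), ENOSF1 (0.871), GTF3A (0.862), TSTA3 (0.855), COLCA2 (0.831) and PPP1R3E (0.830). The difference between the libraries enters this correlation. 5_8S_rRNA, a ribosomal RNA gene, came nearest in ratio, at 4.86 CPM in SPACA1-led ZEA0.75 cells and 63.4 CPM in Control cells (-3.71, -4.25 to -3.21). ECI1, an enzyme of fatty acid oxidation, stood at 142 CPM in ZEA0.75 and 435 CPM in Control cells (-1.61). The other 6 lay between -1.82 for ENOSF1 and -0.73 for TSTA3.

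Of the genes next to MTNR1A on chromosome 26, in the RefSeq order of ARS-UI_Ramb_v3.0, TLR3 alone had enough UMIs to compare in SPACA1-led cells. TLR3, a receptor for double-stranded RNA, stood at 30.9 CPM in SPACA1-led ZEA0.75 cells and 26.6 CPM in Control cells (0.22, -0.02 to 0.45). Over all germ cells FAT1 had 19 UMIs, or 2.08 CPM, in the ZEA0.75 library and 45 UMIs, or 0.897 CPM, in the Control library. Its log2 ratio was 1.21 (0.36 to 2.01). TRIML2 had 6 UMIs (0.656 CPM) in ZEA0.75 and 22 UMIs (0.438 CPM) in Control germ cells. ZFP42 had 1 UMI (0.109 CPM) in ZEA0.75 and 3 UMIs (0.0598 CPM) in Control germ cells. TRIML2 and ZFP42 were too few to compare. SORBS2 and FAM149A did not match a symbol and were left out.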

How the data were processed

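The authors deposited unnormalized UMI counts, 1 matrix per library. Cell Ranger 3.1.0 and STAR are named in the submitters' processing notes. Per the file headers, Cell Ranger 3.1.0 wrote the ZEA0.75 matrix, and version 5.0.0 wrote the Control one. Not given in the sources used here: genome build, annotation and choice of barcodes. The ZEA0.75 matrix held 8809 barcodes with 22148456 UMIs and the Control matrix 7030 barcodes with 53044981 UMIs.

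Barcodes under 500 UMIs or 200 genes, or with over 20% mitochondrial UMIs, were dropped. Scrublet (scanpy 1.11.5) marked 1 ZEA0.75 barcode (0.0114%) and 198 Control barcodes (2.82%), which were left out. With 1 call it has likely not worked in the ZEA0.75 library. Doublets are likely to remain there, and their number was not measured. Clustering without MTNR1A used 2000 variable genes, 30 principal components, 15 neighbours and Leiden resolution 1 (igraph 0.11.9, seed 0), giving 25 clusters. A cluster was called germ where UMIs of the germ marker lists were at least 20 times those of the somatic lists in the library holding most of its cells. The germ cluster with the highest spermatogonia markers was set apart.

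No test was made between single libraries. Counts were summed and given as CPM with exact Poisson intervals, shares with exact (Clopper-Pearson) binomial intervals, and ratios of ZEA0.75 over Control with exact conditional binomial intervals. A sum of 0 was set to 3 counts. A stage was compared where both libraries had 50 or more of its cells, and a gene where its summed UMIs reached 50. Named were MTNR1A, the 4 stage genes, the 8 genes most like it (at least 200 germ UMIs) and up to 4 genes with the most germ UMIs per melatonin sublist. Of these, 1 gene of the melatonin list is not reported here; it is counted in the list's totals. U6, PLB1, VAT1L, PIWIL1 and the chromosomal neighbours were added. The members and lists were chosen with earlier results of these data known. The computation was tested on simulated data. Alternatives were depth limits, thinning, scaling, weighting, doublets kept, subtraction of the level in somatic cells, other clusterings and single-cell stages.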

Additional observations from a re-analysis of the deposited data

How the results depend on the processing

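MTNR1A was lower in the ZEA0.75 library in all 47 alternatives of its 4 ratios between libraries, from -6.37 to -1.88 on the log2 scale. The SPACA1-led ratio stayed between -4.70 and -4.06. With equal weight per cell, the ratio over all kept cells was -5.10. In HMGB4-led cells of at least 5000 UMIs it was -2.38, set by 3 counts in place of 0. In germ cells of at least 5000 UMIs, by HMGB4 ranges chosen after seeing the data, it was -6.37 from 1000 to 2500 CPM, where AURKA was 141 CPM in ZEA0.75 and 631 CPM in Control cells and the stages differed, -3.23 from 7500 to 10000 CPM and -1.88, also from 0 UMIs, above 10000 CPM.

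The Control step of HMGB4-led over SPACA1-led cells was -0.90 at Leiden resolution 0.5, -0.86 at resolution 2 and -0.74 with stages from single cells. With those stages the SPEM1-led over HMGB4-led step was -0.29; it was not computed at resolution 0.5, which gave no SPEM1-led cluster. The SPACA1-led over AURKA-led step was -0.66 with equal weight per cell and -0.15, within counting error, for the share of cells with a UMI after thinning. By Spearman's rho 4 of the 8 most like genes were shared over both libraries and 5 of 8 over the Control library. Of melatonin genes in SPACA1-led cells, 6 were lower and 2 higher when scaled by the median ratio, and 1 was higher with at least 200 UMIs or after thinning to 500 UMIs. In HMGB4-led cells 0 were higher under each of these 3 settings. The cause of these changes was not tested.

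No paired analysis was possible because each group has 1 library, and for the same reason none was left out in turn.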
